A study of Mus musculus with 6 samples.

Results

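Bone cells read mechanical load through channels of the plasma membrane and pass the signal on through gap junctions and released ATP, and 10 genes of this route are described. They are the mechanosensors *Piezo1*, *Piezo2* and *Trpv4*, the connexins *Gja1* and *Gjc1*, the pannexins *Panx1* and *Panx3*, the ATP receptors *P2rx4* and *P2rx7*, and the ectonucleotidase *Entpd1*. They were taken by gene symbol from the count table, in which they are 10 of 56748 genes, and all 10 had enough counts to be tested.

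Bulk RNA sequencing gave 6 libraries of cultured cells isolated from mouse long bones and labelled as osteocytes, 3 labelled WT and 3 labelled cKO. The WT mice were C57BL/6J, and the cKO mice carried *Gsdmd* fl/fl alleles together with a DMP1-Cre transgene on a strain background not given in the sources used here. Cre is driven by the dentin matrix protein 1 promoter in these mice, so that recombination is limited to cells in which this promoter has been active. The isolation protocol used mice aged 7 weeks and a culture of 7 days. The cells of all 6 libraries were given lipopolysaccharide (LPS, 10 ng/mL) for 3 h and after it aluminum hydroxide (20 µg/mL), a particulate that triggers the NLRP3 inflammasome, for another 3 h, and unstimulated libraries were not analysed here. The total counts were 45128793, 49734046 and 39590527 for WT replicates 1 to 3, and 41645500, 39566835 and 45161392 for cKO replicates 1 to 3. Nothing in the labels says that the replicates came from separate animals or cultures, so the p-values measure only the spread between these samples, which may be technical.

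A channel opened by membrane stretch lets calcium into the cell, and calcium entry can be followed by the opening of connexin and pannexin hemichannels, through which ATP leaves. ATP outside the cell opens P2X receptors and stimulates P2Y receptors on the same and neighbouring cells, until ectonucleotidases on the cell surface degrade it to AMP and adenosine. In bone, osteocytes are joined to each other by gap junctions made largely of connexin 43, the product of *Gja1*.

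The labels were checked first. *Gsdmd*, the gene to be deleted, was counted 609, 699 and 549 times in WT and 885, 937 and 1045 times in the libraries labelled cKO. It was therefore higher in every library labelled cKO than in any WT library, against the label. *Gsdmd* rose with a log2 fold change of 0.69 (adjusted p = 2.27e-06, edgeR). Macrophage markers, described below, were also higher in the libraries labelled cKO, and their part in this rise was not tested. The groups are named by their labels throughout. The gene count does not separate the floxed exons from the rest of the transcript. *Xist*, the RNA of the inactive X chromosome of female cells, was counted 4, 0 and 2 times in WT and 48762, 44817 and 51216 times in the libraries labelled cKO. The Y-linked genes *Ddx3y*, *Eif2s3y*, *Uty* and *Kdm5d* had 0 counts in each library labelled cKO and between 1203 and 5455 counts in WT. The sex-linked genes thus divided the libraries exactly as the genotype label did, and sex and genotype cannot be told apart in these data. This goes against the study's methods, which describe the mice as matched for sex.

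The cell type label was compared with markers of osteocytes. *Sost*, which encodes sclerostin, had 0 counts in all 6 libraries, *Mepe* had at most 2 and *Dmp1*, whose promoter drives the Cre transgene, at most 6. Of the 10 osteocyte markers, 5 were tested, and 1 rose and 3 fell. *Pdpn*, an early osteocyte marker that other stromal cells also express, was the most abundant of the list per length, and the list summed to 691, 717 and 716 CPM in WT and 727, 707 and 702 CPM in the libraries labelled cKO. The defining markers of mature osteocytes were therefore at or near 0, and the sum came mostly from *Pdpn* and *Cd44*. CPM are counts per 1000000 of the TMM-scaled library size.

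**Figure D1:**
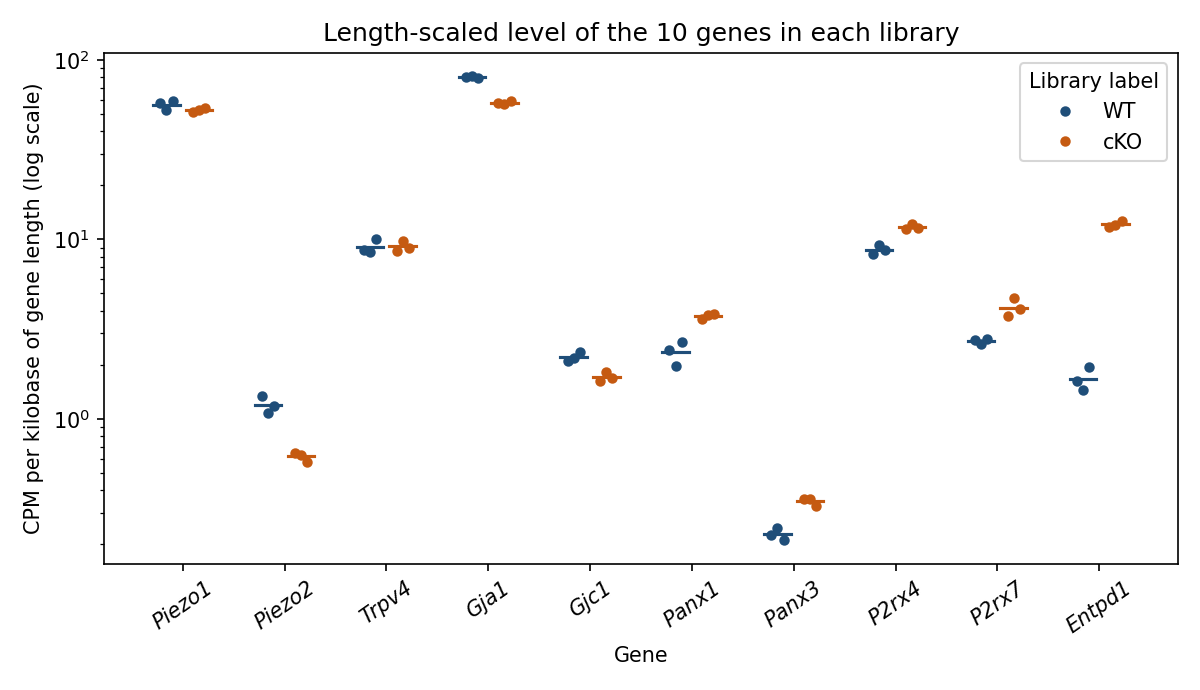
Level of each of the 10 genes in each library, as CPM per kilobase of gene length on a log axis. Points are single libraries and lines are means of 3 libraries, and the groups share no values for 8 of the 10 genes, with overlap for *Piezo1* and *Trpv4*.

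Of the 10 genes, 4 rose and 3 fell in the libraries labelled cKO at an adjusted p below 0.05 (the quasi-likelihood test of edgeR, Benjamini-Hochberg adjustment over 17146 tested genes), where 20.1% of all tested genes rose and 19.2% fell. *P2rx4*, *P2rx7*, *Panx1* and *Entpd1* rose, *Gja1*, *Gjc1* and *Piezo2* fell, and *Piezo1*, *Trpv4* and *Panx3* did not pass. With a change of at least 2-fold asked for as well, 1 gene rose, *Entpd1*, and 0 fell, where 6.56% of all tested genes rose and 4.64% fell. The libraries of the groups did not overlap for 8 of the 10 genes, as for 49.2% of all tested genes. The median log2 fold change of the 10 genes was 0.21, and that of all tested genes was 0.01. In bulk RNA, fewer cells of a type and less RNA per cell cannot be told apart.

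Levels of different genes were compared as CPM per kilobase of gene length. In WT the order was *Gja1* (80.2 ± 0.865), *Piezo1* (56.3 ± 3.24), *Trpv4* (9.08 ± 0.839), *P2rx4* (8.77 ± 0.487), *P2rx7* (2.72 ± 0.105), *Panx1* (2.36 ± 0.361), *Gjc1* (2.21 ± 0.131), *Entpd1* (1.67 ± 0.249), *Piezo2* (1.20 ± 0.129) and *Panx3* (0.228 ± 0.0182) (SD, n = 3 each). Ranges over the 3 libraries overlapped between *Trpv4* and *P2rx4*, between *P2rx7* and *Panx1*, and between *Panx1* and *Gjc1*. The ranges thus did not separate those neighbours, although *P2rx7* was above *Panx1* within every single library of both groups. In the libraries labelled cKO the same genes led, *Gja1* at 57.9 ± 1.03 and *Piezo1* at 52.6 ± 1.13 CPM per kilobase (SD, n = 3 each). *Entpd1* had moved from rank 8 to rank 3, at 12.1 ± 0.518 CPM per kilobase (SD, n = 3), where its range overlapped that of *P2rx4* at 11.7 ± 0.358 (SD, n = 3). Below them came *Trpv4*, *P2rx7* and *Panx1*, of which the last pair overlapped, and then *Gjc1*, *Piezo2* and *Panx3* in the same order as in WT.

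*Piezo1* and *Piezo2* encode channels that open when the membrane is stretched. *Piezo1*, on chromosome 8 of GRCm39 from 123208437 to 123278068, was at 569, 524 and 586 CPM in WT and 510.3, 524 and 533 CPM in the libraries labelled cKO. The groups overlapped, since WT replicate 2 lay among the libraries labelled cKO. The log2 fold change was -0.10 (95% interval -0.19 to -0.01) and did not pass (adjusted p = 0.0733, quasi-likelihood test of edgeR, Benjamini-Hochberg adjustment). Without WT replicate 2 it was -0.16 and passed, with an adjusted p of 0.00717 from edgeR, and over all alternatives the adjusted p lay between 0.00239 and 0.254. The 3′ end of the gene overlaps *Ctu2* on the opposite strand, which had 808 to 1215 counts per library, and the strand setting of the counting is not given in the sources used here, so reads of the overlap could belong to either gene.

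*Piezo2*, on chromosome 18 from 63143284 to 63520254, was much lower, with 1033, 921 and 790 counts in WT and 465, 432 and 451 in the libraries labelled cKO. As CPM these were 22.9, 18.6 and 20.4 in WT and 11.1, 10.9 and 9.93 in the libraries labelled cKO. Every WT library lay above every library labelled cKO. *Piezo2* fell by 0.96 on the log2 scale (standard error, SE, 0.099, adjusted p = 3.77e-07, edgeR), close to the 2-fold limit, which it passed without WT replicate 2 with a log2 fold change of -1.04. *Piezo1* made up 97.9% ± 0.170 of the summed length-scaled level of both genes in WT and 98.8% ± 0.0874 in the libraries labelled cKO (SD, n = 3 each).

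*Trpv4* encodes a cation channel opened by cell swelling, warmth and lipid messengers, and lies on chromosome 5 from 114760213 to 114796482. It was at 35.6, 34.5 and 40.9 CPM in WT and 35.3, 40.1 and 36.5 CPM in the libraries labelled cKO. The libraries of both groups were interleaved. Its log2 fold change was 0.01 with a 95% interval of -0.14 to 0.17 (adjusted p = 0.91, edgeR), and its sign depended on the scaling and on single libraries.

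Of 30 other stretch-activated or osmosensitive channels and their partners, 19 were tested, of which 5 rose and 6 fell. Among all tested genes 20.1% rose and 19.2% fell, shares that stand beside the counts of every pathway and marker list. The median log2 fold change of the 19 was -0.04, beside 0.01 for all tested genes. Without cKO replicate 1, 3 of these channels fell, and with upper-quartile scaling 9 fell. *Pkd2*, which encodes polycystin 2, a channel of primary cilia and the endoplasmic reticulum, was the most abundant per length, at 48.4 CPM per kilobase in WT and 47.0 in the libraries labelled cKO. *Cacna1h*, which encodes a T-type calcium channel, was counted 1893, 2246 and 1795 times in WT and 222, 177 and 257 times in the libraries labelled cKO. Its groups lay far apart, and it fell by 3.11 on the log2 scale (SE 0.092, adjusted p = 1.75e-14, edgeR). *Trpv2*, a relative of *Trpv4* that is abundant in phagocytes, was counted 522, 632 and 525 times in WT and 1818, 1845 and 2059 times in the libraries labelled cKO. It rose with a log2 fold change of 1.83 (SE 0.075, adjusted p = 1.4e-12, edgeR), and *Trpm3*, a steroid-gated and heat-gated channel with at most 45 counts in a WT library and at least 94 in those labelled cKO, rose by 1.45. *Trpv2* had been below *Trpv4* per length in WT, at 2.81 against 9.08 CPM per kilobase, and its mean was above that of *Trpv4* in the libraries labelled cKO, at 10.0 against 9.15.

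*Gja1* encodes connexin 43, the main gap junction protein of the osteoblast lineage, and lies on chromosome 10 from 56253426 to 56278609. It was at 820.5, 832 and 814 CPM in WT and at 589, 586 and 605.5 CPM in the libraries labelled cKO. The lowest WT library was above the highest library labelled cKO, and the spread within each group was small beside the distance between them. *Gja1* fell by 0.47 on the log2 scale (SE 0.034, adjusted p = 3.4e-09, quasi-likelihood test of edgeR, Benjamini-Hochberg adjustment), a level 1.39-fold higher in WT. *Gjc1* encodes connexin 45, which forms channels of lower conductance, and lies on chromosome 11 from 102690405 to 102710526. It was at 10.5, 10.9 and 11.8 CPM in WT and 8.08, 9.18 and 8.45 CPM in the libraries labelled cKO. The groups did not overlap, and *Gjc1* fell by 0.37 on the log2 scale (SE 0.11, adjusted p = 0.0131, edgeR). Without cKO replicate 1 its log2 fold change was -0.33 and no longer passed, with an adjusted p of 0.0631 from edgeR, and over all alternatives it lay between 0.00385 and 0.0631.

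Over all 20 connexin genes, *Gja1* held 86.8%, 85.0% and 86.7% of the summed length-scaled level in WT and 87.8%, 87.4% and 88.1% in the libraries labelled cKO. The shares did not overlap, but the difference was only 1.58 percentage points (exact permutation test, two-sided, p = 0.1, the smallest that 3 against 3 libraries allow). It was 0.353 points without scaling by length and 1.01 points without WT replicate 2. The summed connexin level itself was at least 91.6 CPM per kilobase in WT libraries and at most 67.0 in those labelled cKO. Of the 18 other connexins, 6 were tested, of which 0 rose and 4 fell, with a median log2 fold change of -0.71. At least 1 count in total in place of the filter gave 1 that rose. *Gjb2*, which encodes connexin 26, was counted 50, 39 and 33 times in WT and 0, 0 and 6 times in the libraries labelled cKO. Its groups did not overlap, and it fell, with a log2 fold change of -4.22 (SE 0.76, adjusted p = 0.000219, edgeR). The size of this change rests on few counts, since it was -8.30 without cKO replicate 3, which held the 6 counts, and -3.67 without cKO replicate 1.

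*Panx1* encodes the widely expressed pannexin 1, whose channels release ATP, and lies on chromosome 9 from 14913424 to 14956774. It was at 14.7, 11.8 and 16.1 CPM in WT and at 21.6, 22.8 and 23.1 CPM in the libraries labelled cKO. Each library labelled cKO lay above every WT library. The log2 fold change of *Panx1* was 0.67 (SE 0.10, adjusted p = 3.71e-05, edgeR), and the gene rose. *Panx3*, a pannexin of cartilage and bone on chromosome 9 from 37571198 to 37580531, was counted 35, 42 and 28 times in WT and 52, 49 and 51 times in the libraries labelled cKO. Its groups did not overlap either, but the log2 fold change of 0.61 had a 95% interval of -0.10 to 1.32 and did not pass (adjusted p = 0.169, edgeR). *Panx1* made up 89.4% ± 2.45 of the summed length-scaled level of the 3 pannexins in WT and 90.5% ± 0.698 in the libraries labelled cKO (SD, n = 3 each).

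Among 17 other ATP-release channels and genes that load ATP into vesicles, 13 were tested, of which 4 rose and 2 fell, with a median log2 fold change of -0.00. *Ank*, which encodes an exporter of ATP and pyrophosphate, was the most abundant per length, at 52.0 CPM per kilobase in WT and 44.2 in the libraries labelled cKO, and fell by 0.23. None of them passed the 2-fold limit in edgeR. Over all 8 pathway lists, 76 of 115 genes were tested, of which 17 rose and 25 fell, 4 each way by at least 2-fold. Of all tested genes 20.1% rose and 19.2% fell, and 6.56% rose and 4.64% fell by at least 2-fold. The median log2 fold change of the 76 genes was -0.06. Among the 4 ATP-release genes that rose, *Lrrc8d* and *Calhm5* had the largest log2 fold changes, 0.69 each. Those genes, an anion channel subunit that passes organic solutes and a member of the CALHM channel family, were chosen after their values were seen.

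*P2rx7* and *P2rx4* encode ATP-gated cation channels and lie beside each other on chromosome 5, *P2rx7* from 122781974 to 122829495 and *P2rx4* from 122845607 to 122867801, with 16111 bases between them. *P2rx4* responds to low ATP and was at 58.1, 65.0 and 61.7 CPM in WT and at 80.7, 85.1 and 80.9 CPM in the libraries labelled cKO. *P2rx7* needs high ATP, is linked to activation of the NLRP3 inflammasome, and was at 16.5, 15.5 and 16.7 CPM in WT and at 22.2, 28.1 and 24.3 CPM in the libraries labelled cKO. For both receptors every library labelled cKO was above every WT library. *P2rx4* rose with a log2 fold change of 0.42 (SE 0.053, adjusted p = 4.77e-06, edgeR). *P2rx7* rose with a log2 fold change of 0.62 (SE 0.090, adjusted p = 2.48e-05, edgeR), and cKO replicate 2 was the highest library.

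Together the 7 P2X genes summed to at most 13.4 CPM per kilobase in WT libraries and at least 17.0 in those labelled cKO. *P2rx4* made up 66.3% ± 3.03 of this sum in WT and 66.7% ± 1.05 in the libraries labelled cKO, and *P2rx7* 20.5% ± 0.967 and 23.7% ± 1.78 (SD, n = 3 each). Of the 5 other P2X receptors 3 were tested, of which *P2rx6* rose, with a log2 fold change of 0.66, and *P2rx5* fell by 0.89 on at least 67 counts in a WT library and at most 59 in those labelled cKO. *P2rx6* was the most abundant of these per length in the libraries labelled cKO, where its mean was 0.999 CPM per kilobase, whereas *P2rx5* had the higher mean in WT, 0.803 against 0.633. *P2rx5*, which was chosen after its values were seen, did not pass without WT replicate 1, cKO replicate 2 or cKO replicate 3. Of the 8 P2Y receptors, 5 were tested, 1 rose and 0 fell. That gene was *P2ry6*, a receptor for UDP, counted 245, 306 and 301 times in WT and 1411, 1326 and 1497 times in the libraries labelled cKO. *P2ry6* had no overlap between groups and rose with a log2 fold change of 2.37 (SE 0.11, adjusted p = 4.81e-12, edgeR). It was the most abundant P2Y gene per length in each library labelled cKO, whereas *P2ry2*, a receptor for ATP and UTP that was singled out after its values were seen, was above it in each WT library. The number of P2Y genes that rose was 1 to 3 with each library left out in turn, 3 without WT replicate 3, and 2 with limma-voom or with either other filter.

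*Entpd1* encodes CD39, which removes phosphates from ATP and ADP outside the cell and is known from macrophages, lymphocytes and endothelium, and it lies on chromosome 19 from 40600810 to 40730046. The gene had 408, 401 and 420 counts in WT and 2739, 2682 and 3218 in the libraries labelled cKO. As CPM these were 9.06, 8.08 and 10.8 in WT and 65.1, 67.4 and 70.8 in the libraries labelled cKO. The lowest library labelled cKO was well above the highest WT library. *Entpd1* rose 7.31-fold, a log2 fold change of 2.87 (SE 0.086, adjusted p = 1.98e-14, quasi-likelihood test of edgeR, Benjamini-Hochberg adjustment). Pseudogenes within the gene on the same strand, *Gm8783* and *Gm16027*, had at most 33 and 6 counts per library.

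*Nt5e*, which encodes CD73 and turns the AMP left by CD39 into adenosine, was the most abundant of the 12 other ectonucleotidases per length, at 44.4 CPM per kilobase in WT and 35.7 in the libraries labelled cKO. It fell by 0.31 on the log2 scale (SE 0.046, adjusted p = 2.7e-05, edgeR). The length-scaled level of *Entpd1* was 0.0391, 0.0324 and 0.0414 of that of *Nt5e* in WT and 0.337, 0.344 and 0.341 in the libraries labelled cKO. The ratio was thus higher in each library labelled cKO, and *Entpd1* stayed below *Nt5e* in all 6. Of the 12 genes 9 were tested, of which 2 rose and 3 fell, with a median log2 fold change of -0.08. Of the 13 adenosine receptors, transporters and breakdown enzymes 9 were tested, of which 3 rose and 0 fell. *Slc29a1*, an equilibrative nucleoside transporter, was the most abundant per length and rose with a log2 fold change of 0.41, while *Slc28a2*, a sodium-coupled nucleoside transporter, was counted 3, 0 and 4 times in WT and 71, 51 and 47 times in the libraries labelled cKO and rose as well (adjusted p = 1.34e-05, edgeR). With upper-quartile scaling 2 genes of this list fell, and without WT replicate 2 or cKO replicate 1 it was 1 gene.

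YAP and TAZ carry mechanical signals to the nucleus through TEAD factors, and 12 genes of that group, all tested, stand beside the membrane sensors. Of these 9 fell and 1 rose, with a median log2 fold change of -0.43, where 19.2% of all tested genes fell and 20.1% rose. In the same libraries the 16 macrophage markers had a mean sum of 1315 CPM in WT and 6659 CPM under the cKO label, and 7 smooth muscle and pericyte markers 1334 and 666 CPM. The part of these markers in the result was not tested. *Ccn2*, a YAP target that encodes connective tissue growth factor, was the most abundant per length, at 1511 CPM per kilobase in WT and 1015 in the libraries labelled cKO, and fell by 0.57 (SE 0.030, adjusted p = 4.74e-11, edgeR). *Ankrd1*, another target, was counted 435, 616 and 579 times in WT and 265, 252 and 247 times in the libraries labelled cKO, and fell by 1.03 on the log2 scale (SE 0.15, adjusted p = 1.89e-05, edgeR). The gene that rose was *Amotl2*, with a log2 fold change of 0.19.

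**Figure D2:**
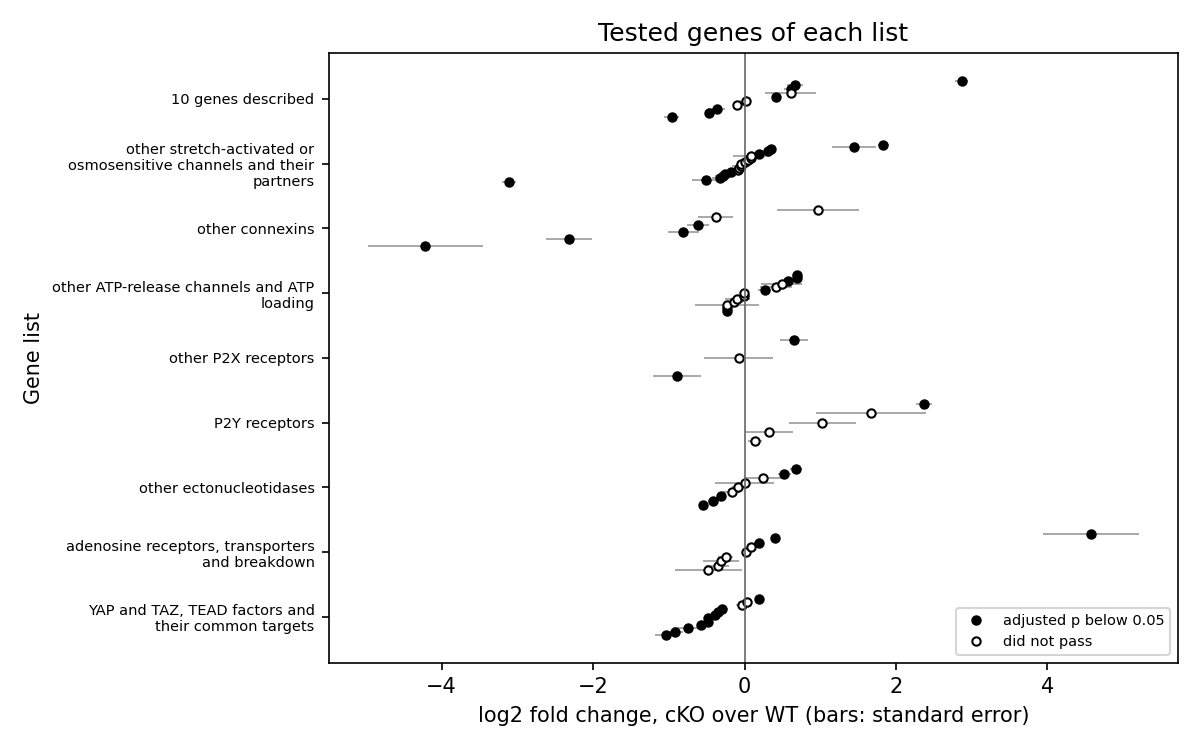
Log2 fold change of each tested gene, libraries labelled cKO over WT, for the 10 genes and the 8 pathway lists. Bars are standard errors, filled points have an adjusted p below 0.05 and open points do not, and 9 of the 12 YAP, TAZ and TEAD genes lie left of 0 as filled points.

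Markers of other cell types moved with the genotype label. All 15 tested genes of 16 macrophage markers rose, with a median log2 fold change of 2.97. The list summed to 1230, 1330 and 1384 CPM in WT and 6470, 6725 and 6784 CPM in the libraries labelled cKO, and no marker of the list was at 0 in all libraries. *Lyz2*, which encodes lysozyme, was the most abundant per length, and *Csf1r*, *C1qc* and *Lyz2* had the smallest p-values, with log2 fold changes of 3.17, 3.32 and 2.20. The rises of *Entpd1*, *P2ry6*, *Trpv2*, *P2rx7*, *Panx1*, *P2rx4* and *Gsdmd* (2.87, 2.37, 1.83, 0.62, 0.67, 0.42 and 0.69 on the log2 scale) therefore came in the same libraries as higher macrophage markers. What part these markers had in the rises was not tested.

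Markers of smooth muscle and pericytes were lower beside the fall of *Gja1*, *Gjc1*, *Piezo2* and the YAP, TAZ and TEAD genes. Of 7 smooth muscle and pericyte markers 5 fell and 1 rose, with *Acta2* the most abundant per length, *Tagln*, *Acta2* and *Myh11* those with the smallest p-values, and sums of 1262, 1279 and 1461 CPM in WT and 675, 699 and 623 CPM in the libraries labelled cKO. Of 8 osteoblast markers 6 were tested, of which 2 rose and 3 fell, with *Col1a1* the most abundant and the one with the smallest p, and sums of 5870.0, 5572 and 6208 CPM in WT and 3611, 3743 and 3892 CPM in the libraries labelled cKO. *Col1a1* alone carried the lower sum, since it went from a mean of 5802 to 3650.0 CPM, while *Ibsp* and *Alpl*, which encode a matrix protein and a phosphatase of mineralizing cells, rose. *Bglap*, which encodes osteocalcin, had at most 5 counts. Of 8 fibroblast and stromal markers 2 rose and 4 fell, led per length by *Ly6a*, and they summed to 1030.0, 1020.0 and 1055 CPM in WT and 919, 947 and 915 CPM in the libraries labelled cKO. *Postn*, which encodes periostin and had the smallest p of the list, went from a mean of 231 to 26.4 CPM, a larger difference than that of the whole sum, while *Pdgfra* rose from 499 to 679.5 CPM. The part of these lists in the falls was not tested.

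Of 8 chondrocyte markers 7 were tested, of which 5 rose and 2 fell, and their sums, carried by *Col2a1*, were 1591, 1427 and 1515 CPM in WT and 869.5, 933 and 966 CPM in the libraries labelled cKO, while *Col9a1* was at 0 in WT. *Acan*, which encodes the cartilage proteoglycan aggrecan and had the smallest p of the list, went the other way, with 8, 2 and 6 counts in WT and 871, 782 and 922 under the cKO label, and rose with a log2 fold change of 7.36 (adjusted p = 1.69e-14, edgeR). Endothelial markers, of which 2 of 6 tested rose and 4 fell, summed to 11.9, 10.3 and 11.1 CPM in WT and 20.7, 21.8 and 19.4 CPM in the libraries labelled cKO, with *Vwf* the most abundant per length in the libraries labelled cKO, *Cdh5*, picked out once its values were known, in WT, and *Cldn5* at 0 throughout. Schwann and nerve markers summed to 190.4, 199.8 and 209 CPM in WT and 89.3, 90.3 and 99.0 CPM in the libraries labelled cKO, and 2 of the 4 tested fell, with *Ncam1* the most abundant per length in WT and close to *S100b* in the libraries labelled cKO, *Snap25* at 0 in all libraries and *Sox10* at 0 in those labelled cKO. These lists show that the groups differed in transcripts of several cell types. Osteoclast markers summed to 144, 143 and 152 CPM in WT and 169, 181 and 150.5 CPM in the libraries labelled cKO. The list was led per length by *Ctsk*, and 2 of the 6 tested rose and 2 fell. *Atp6v0d2* rose from a mean of 21.35 to 76.6 CPM and *Acp5* from 5.70 to 13.5. *Mmp9* fell from 21.9 to 3.05 CPM and *Ctsk* from 96.6 to 73.0. Neutrophil markers summed to 1.58, 1.37 and 1.11 CPM in WT and 6.01, 7.19 and 6.67 CPM in the libraries labelled cKO, led per length by *S100a8*, and *S100a9* and *Retnlg* were at 0 in all libraries. Adipocyte markers summed to 4.49, 4.31 and 4.69 CPM in WT and 7.49, 9.38 and 6.67 CPM in the libraries labelled cKO, nearly all from *Fabp4*, with *Plin1*, *Lep* and *Cidec* at 0. Lymphocyte markers were near 0 throughout, since none of the 8 was tested, *Cd3e*, *Cd3d*, *Cd8a*, *Ms4a1* and *Nkg7* had 0 counts in all libraries, and the list summed to at most 0.285 CPM in a library.

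**Figure D3:**
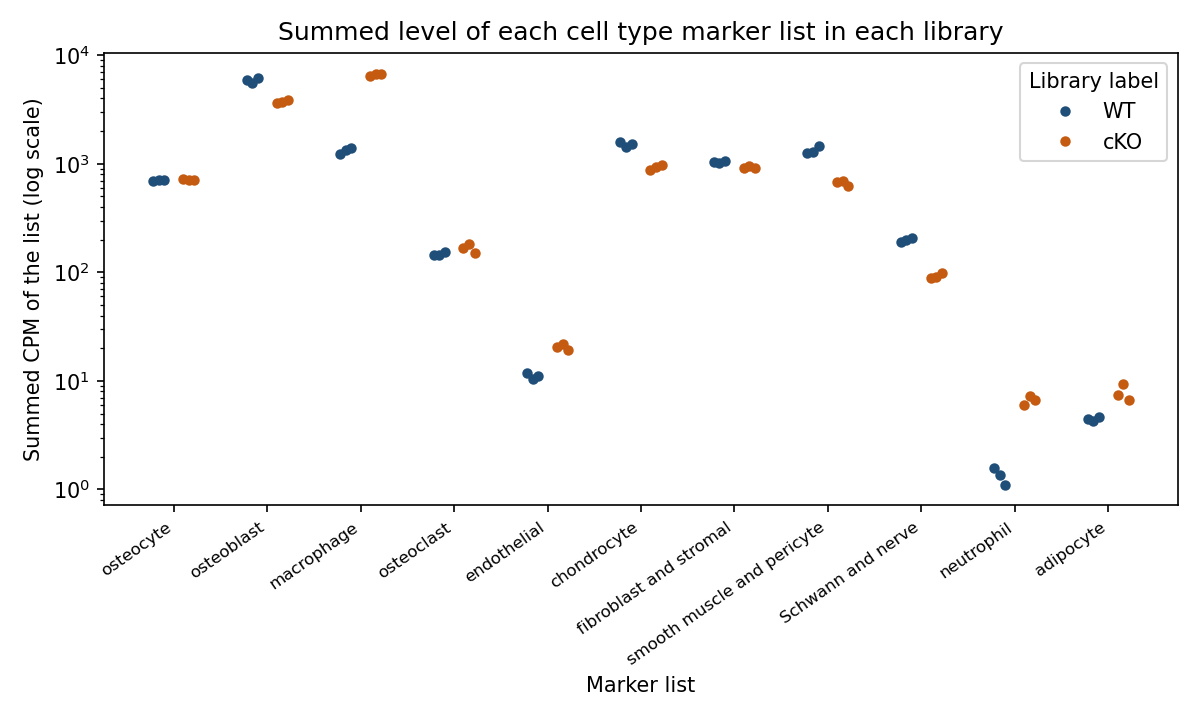
Summed CPM of each cell type marker list in each library, on a log axis, with 1 point for each library. The macrophage list lies between 1230 and 1384 CPM in WT and between 6470 and 6784 CPM in the libraries labelled cKO, whereas the osteocyte list overlaps between the groups.

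The genes whose log2 CPM ran most like each of the 10 genes over the 6 libraries were listed by Pearson's r, as a description. The 6 points fall into the groups that the label sets, so a high r mostly restates that a gene differs between them, and nothing about shared control follows. For *Entpd1* these were *Tnfaip8*, *Susd3* and *Tgfbi* (r of at least 0.9997), and 1769 tested genes reached 0.95. For *Gja1* they were *Samd4*, *Tafa2* and *Me2* (r of at least 0.9995), and 1491 genes reached 0.95. *Trpv4* and *Piezo1*, which did not pass, had 11 and 37 such genes, led by *Gm3219* (0.9863) and *Ints13* (0.9932). The closest gene was *Haus6* for *Piezo2* (0.9989), *Snapin* for *Gjc1* (0.9999), *Phkg1* for *Panx1* (0.9995), *Pogk* for *Panx3* (0.9987), *Ccrl2* for *P2rx4* (0.9990) and *Pcnx* for *P2rx7* (0.9973).

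Promoter sequences from RefSeq on the build GRCm38.p6, each 250 bases before to 50 after a transcription start, were searched for 7 of the 10 genes in 9 windows. *Piezo2*, which fell, was left out of the search by choice, and *Gjc1* and *Panx3* had no window of this length in the set. The counts of windows below therefore do not cover these genes. The motifs, chosen after the values were seen, were AP-1 (TGANTCA), a PU box (GAGGAA), TEAD (GGAATG), CRE (TGACGTCA) and RUNX (TGTGGT), read on both strands. AP-1 was found in 2 of the 9 windows and in 7.81% of all 32851 windows of the same length, the PU box in 4 windows and 28.3% of all, and RUNX in 2 windows and 16.8% of all. TEAD letters were in 0 of the 9 windows and 14.7% of all, and CRE letters in 0 and 1.79%. The AP-1 matches were in *Gja1*, which fell, from base 232 of its window, and in *P2rx7*, which rose, from base 2. The sequences printed are the window of *Gja1*, the first window of *P2rx7* and the second window of *Entpd1*, which holds a pair of PU box matches from bases 16 and 24, all on the plus strand with AP-1 and PU box matches in capitals. A match is a description of letters and not a bound site.
Gja1, chr10:56377050-56377349: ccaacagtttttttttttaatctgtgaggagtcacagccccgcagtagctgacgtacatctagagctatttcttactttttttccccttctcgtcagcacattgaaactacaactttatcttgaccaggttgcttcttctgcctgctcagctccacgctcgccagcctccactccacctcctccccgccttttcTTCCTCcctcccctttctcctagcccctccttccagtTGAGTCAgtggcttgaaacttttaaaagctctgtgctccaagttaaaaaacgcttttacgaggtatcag
P2rx7, first window, chr5:122643677-122643976: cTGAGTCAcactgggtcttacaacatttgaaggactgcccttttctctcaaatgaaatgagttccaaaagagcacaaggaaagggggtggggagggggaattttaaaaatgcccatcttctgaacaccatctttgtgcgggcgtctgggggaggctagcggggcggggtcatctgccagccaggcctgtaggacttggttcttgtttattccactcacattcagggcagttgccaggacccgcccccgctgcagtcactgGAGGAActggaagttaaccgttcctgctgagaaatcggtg
Entpd1, second window, chr19:40659520-40659819: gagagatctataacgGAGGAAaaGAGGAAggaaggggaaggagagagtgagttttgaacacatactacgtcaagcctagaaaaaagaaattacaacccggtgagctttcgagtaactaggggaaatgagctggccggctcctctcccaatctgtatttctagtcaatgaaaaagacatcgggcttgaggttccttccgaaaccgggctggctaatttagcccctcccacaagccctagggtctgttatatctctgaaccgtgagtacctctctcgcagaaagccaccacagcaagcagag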

How the data were processed

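The authors aligned trimmed paired-end reads to GRCm39 with HISAT2 2.0.5, assigned them to genes with featureCounts and deposited the raw counts with coordinates and gene lengths. The submitters' processing notes give featureCounts 1.55.0-p3, another release than the paper's methods, and the strand setting is not given in the sources used here. From the counts, edgeR 4.0.16 in R 4.3.3 was run with filterByExpr, TMM scaling and the quasi-likelihood test without robust estimation, with genotype as the only term, with Benjamini-Hochberg adjustment over 17146 genes. The procedure was tested on simulated data with 16842 tested genes, where 80 of 100 genes changed 2-fold were recovered. At 1.5-fold 68 of 100 were recovered, and 10 of 16642 unchanged genes were called. The simulation changed far fewer genes than were called in the data, where 20.1% rose and 19.2% fell. It also drew the changed genes only from those above a minimum mean count. Its rates of recovery and false calls may therefore differ from those in the data. CPM per kilobase divides CPM by the deposited gene length. DESeq2 1.42.0 and limma 3.58.1 were alternatives, beside other scalings, other filters, halved counts, a replicate block and each library left out.

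The 10 genes and the gene lists were chosen with earlier results of these data known. All 10 genes are named. Of each pathway list, the genes past an adjusted p of 0.05 and a 2-fold change, at most 4 a direction, and the most abundant by the mean of both groups are named, apart from some not used here, and of each marker list the most abundant gene, defining markers at 0 and at most 3 with the smallest p. Even values made up between 63.4% and 65.7% of counts of 1 to 10 in a library. The limit that a count of 0 allows, 3 counts, is 0.0605 to 0.0773 CPM, covers counting error only, and is higher if each read pair adds 2 counts, which was not tested. Intervals of fold changes also hold the spread between libraries.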

Additional observations from a re-analysis of the deposited data

How the results depend on the processing

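Across the 17 alternatives, *P2rx4*, *P2rx7*, *Panx1* and *Entpd1* rose under each, and *Gja1* and *Piezo2* fell under each. The number of the 10 genes that fell was 3, and it was 4 with DESeq2, upper-quartile scaling or the filter dropped, since *Piezo1* then passed, and 2 to 4 with each library left out in turn. *Gjc1* was lost without cKO replicate 1. At least 2-fold, 0 of the 10 fell, against 1 with upper-quartile scaling and 0 to 1 with a library left out. The log2 fold change of *Trpv4* was -0.05481 with upper-quartile scaling and -0.04524 to 0.08551 with a library left out, and the cause was not tested. Pathway list genes that rose numbered 15 to 19 and those that fell 23 to 30. Upper-quartile scaling moved the share of higher genes among all called from 51.2% to 39.5%, and the median log2 fold change of all genes from 0.01 to -0.06. The *Gja1* share of connexins differed by 0.353 percentage points without length scaling.

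Same-numbered libraries had deviations correlated at -0.0055, 0.00228 and -0.0103, and differently numbered libraries at -0.0112 to 0.0172. By this measure same-numbered libraries were no more alike than others. It weights all tested genes equally, those with few counts included, so it cannot tell whether same-numbered cultures were prepared together. With a replicate block, 4 of the 10 genes rose and 3 fell, and of the pathway list genes 17 rose and 24 fell. *Panx3*, with at most 52 counts in a library, passed under none of the 17 alternatives, and depth limits the genes left untested for few counts.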

Other observations

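Some list genes had too few counts to be tested, and their groups did not overlap. Groups did not overlap for 49.2% of all tested genes, and the share among untested genes was not computed. *Gjc3*, a glial connexin, had 0 counts in each WT library and 8, 10 and 6 in the libraries labelled cKO. *Adora1*, an adenosine receptor that inhibits adenylyl cyclase, had 0, 2 and 0 counts in WT and 6, 8 and 10 in the libraries labelled cKO. *Entpd4*, an intracellular relative of *Entpd1*, had 32, 20 and 9 counts in WT and 5, 4 and 2 in the libraries labelled cKO. The choice of these 3 was made with their values in view.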
